A study of Bos taurus and Mus musculus with 16 samples.

Results

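The Hippo kinases and their scaffolds are the core of the pathway that controls whether the coactivators YAP and TAZ reach the nucleus. The 10 genes described here were chosen by name: the kinases Stk3, Stk4, Lats1 and Lats2, the scaffold Sav1, the kinase activators Mob1a and Mob1b, and the upstream scaffolds Nf2, Wwc1 and Wwc2. All 10 are among the 16655 genes of the mouse table and the 14852 genes of the bovine table. A gene was tested where its mean over the samples of its table was at least 10 normalized reads, which kept all 10 in mouse and 9 in bovine. Bovine SAV1 was below that minimum.

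The study asked what the transcription factor TEAD4 does in preimplantation embryos of mice and cattle. Zygotes of both groups received mRNA of BE3, a cytosine base editor made of a Cas9 nickase and a cytidine deaminase, and the edited group also received a mix of single guide RNAs against Tead4 (TEAD4 in cattle). The mouse samples were morulae at 3.25 days after fertilization, 2 control and 2 edited, and the bovine samples were blastocysts at 7.0 days, 6 control and 6 edited. No guide RNA was given to the controls, so effects of guide RNA itself and of TEAD4 loss cannot be told apart. The labels do not give the strain, the number of embryos in a sample or the share of cells that were edited. They do not say whether the samples of a group came from separate collections, so p-values do not measure spread beyond these samples. In the fits by limma, the error of each gene is partly borrowed from all tested genes, largely so with 2 mouse samples a group.

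In the Hippo cascade, MST2 and MST1 (encoded by Stk3 and Stk4) bind the scaffold SAV1 and phosphorylate LATS1, LATS2 and MOB1. Active LATS, bound to MOB1, phosphorylates YAP and TAZ, which then stay in the cytoplasm and cannot join TEAD factors on DNA. NF2 (Merlin) and the WWC proteins (WWC1 is also called KIBRA) bring these kinases together at the cell cortex. In the mouse preimplantation embryo the pathway is active in inner cells and held off in polarized outer cells, where YAP and TEAD4 turn on trophectoderm genes such as Cdx2.

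Several of these genes are pairs of related copies, and the pair with the most similar coding sequence is shown here because the values of near copies depend on how a counting program assigns reads that fit both. The start of the coding sequence, bases 1 to 90 from the start codon, is given 5′ to 3′ for Mob1a and Mob1b from the GENCODE annotation of GRCm38, with capitals at the bases that differ between the members of the pair.
Mob1a: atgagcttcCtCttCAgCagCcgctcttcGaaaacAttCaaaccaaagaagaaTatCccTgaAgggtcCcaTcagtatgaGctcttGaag
Mob1b: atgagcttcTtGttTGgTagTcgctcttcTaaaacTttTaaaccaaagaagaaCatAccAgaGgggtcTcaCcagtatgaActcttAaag
Over this stretch the members differed at 17 bases, of which 15 were at the third position of a codon, and the longest shared run was 14 bases. Over the whole coding sequence 79.6% of aligned bases of Mob1a and Mob1b were identical, against 75.4% for Stk3 and Stk4, 66.7% for Lats2 and Lats1 and 66.0% for Wwc2 and Wwc1. No pair shared a run of more than 23 bases, over the coding sequence or over whole annotated protein-coding transcripts, and for Mob1a and Mob1b the longest was 20. How the authors' counting treated reads with several matches is not given in the sources used here.

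Tead4 had 458 and 519 normalized reads in the control morulae and 57.2 and 76.5 in the edited ones, or 13.7% of the control mean (log2 change -2.86 ± 0.25 (SE), limma adjusted p = 5.37e-09). Bovine TEAD4 ranged from 61.2 to 125 in control (median 92.9) and from 22.6 to 65.6 in edited blastocysts (median 37.5), 42.6% of the control mean, with groups that overlapped (log2 change -1.25 ± 0.25, limma adjusted p = 0.235). In the authors' deposited table the bovine change was -1.21 with an adjusted p of 0.0142. The mouse libraries held 3642907 to 6109425 reads assigned to genes and the bovine libraries 817329 to 2501592, so 3 reads were worth 2.13 to 3.79 normalized reads in mouse and 1.71 to 5.56 in bovine. In mouse, 15.3% of 11386 tested genes passed an adjusted p of 0.05, 8.38% lower (954 genes) and 6.92% higher (788). With every sample scaled to the same total the split was 682 lower and 1111 higher, and the median log2 change of all tested genes moved from near 0 to 0.12. In bovine, 0.0113% of 8884 tested genes passed, which is 1 gene, the uncharacterized locus LOC101905257, named after its value was seen. Trophectoderm markers summed to 8207 to 9347 normalized reads in control and 2710 to 3182 in edited morulae, 7 of 13 tested markers falling and 1 rising. Inner cell mass and epiblast markers summed to 6527 to 6528 and 6522 to 6932, with 5 of 13 tested markers rising and none falling. Of 8 blood cell markers 3 were in the mouse table, at a sum of 139 to 146 in control and 211 to 271 in edited morulae, and of 12 cumulus and granulosa cell markers 3 were, at 20.2 to 21.2 and 15.6 to 37.2. In bovine blastocysts no tested marker of the trophectoderm (9 tested) or of the inner cell mass and epiblast (9 tested) passed, and the 7 cumulus and granulosa and 3 blood markers in the table were all below the minimum for testing.

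In mouse morulae the kinase Lats2 fell after Tead4 editing and the LATS activator Mob1a rose narrowly past the threshold, while the MST kinases and Sav1 did not pass the test. The Mob1a call was lost in several other fits, given with its values, and Mob1a did not pass in the authors' deposited table. These 2 calls of 10 genes (1 lower and 1 higher) stand beside the 15.3% of all tested genes that passed. Every edited value was below every control value for 3 genes, Lats2, Wwc1 and Wwc2, as for 29.2% of all tested genes. Every edited value was above every control value for 5, Lats1, Stk3, Mob1a, Mob1b and Nf2, as for 28.6% of all tested genes. At an unadjusted p of 0.05, 5 of the 10 passed, beside 28.6% of all tested genes. With only 2 samples a group, separation of the groups is thus common in this table. The median log2 change of the 10 genes was 0.07, with 5 above and 5 below 0, and the median of all tested genes was near 0 (-0.005).

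**Figure D1:**
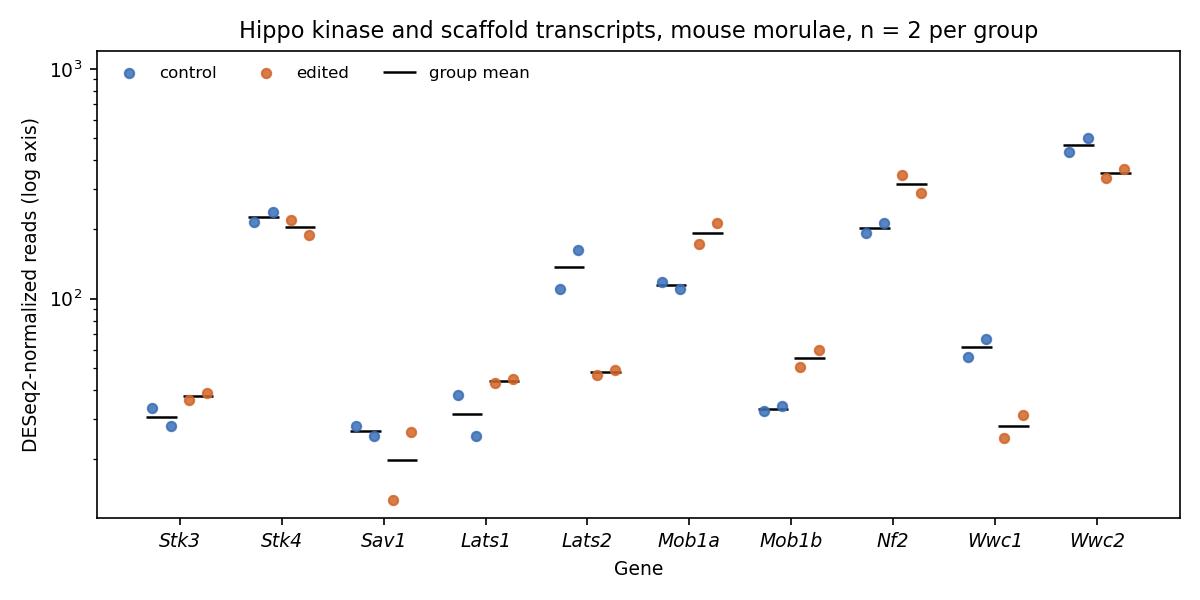
Normalized reads (log axis) of the 10 genes in each mouse morula sample, with the 2 control and 2 edited samples as points and the group means as bars. Lats2 went from 111 and 163 in control to 46.7 and 48.9 in edited samples, and Mob1a from 118 and 110.0 to 174 and 213.

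In bovine blastocysts no kinase or scaffold gene passed the test, and WWC2 was the one whose groups did not overlap. The count was 0 of 9 tested genes with limma, with edgeR and with DESeq2. With limma it stands beside 0.0113% of all tested genes, so a count of 0 is not a result about these genes. The edited gene TEAD4 did not pass with limma either (limma adjusted p = 0.235). Of the 9 genes 2 (WWC2 and LATS1) had an unadjusted limma p under 0.05, beside 5.88% of all tested genes. Every edited value lay below every control value for 1 of the 9, beside 0.158% of all tested genes. For none did every edited value lie above every control value, beside 0.09% of all tested genes. The median log2 change of the 9 genes was -0.29, with 8 below and 1 above 0, against 0.01 for all tested genes. When every sample was scaled to the same total, the median of all tested genes moved to 0.13 and the split among the 9 became 5 below and 4 above 0.

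**Figure D2:**
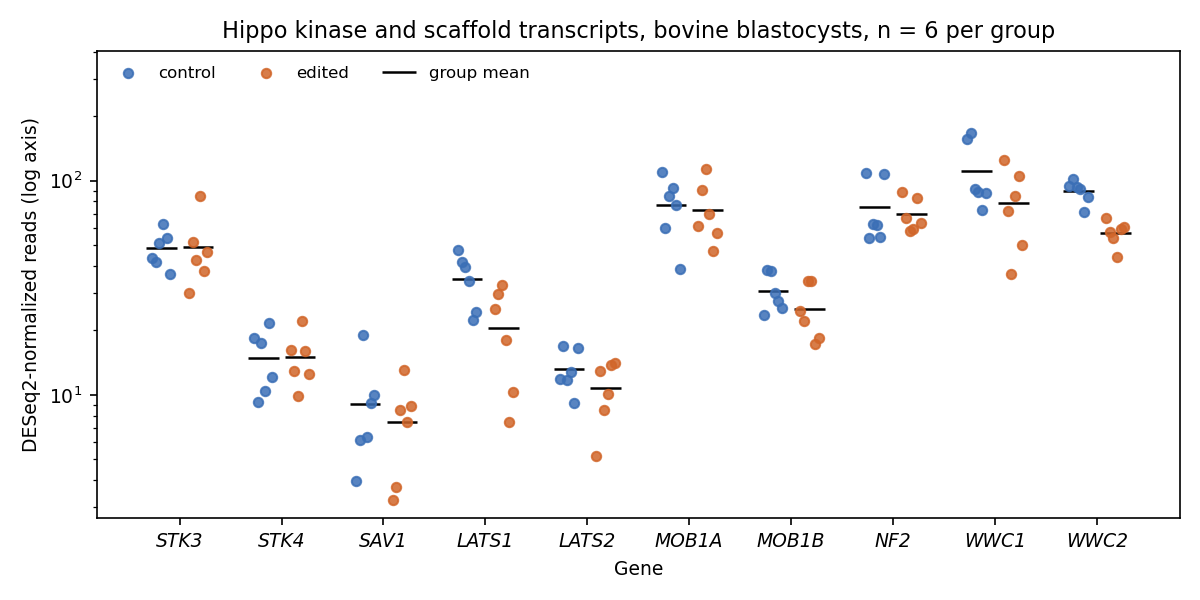
Normalized reads (log axis) of the 10 genes in each bovine blastocyst sample, with 6 control and 6 edited samples as points and the group means as bars. The WWC2 values were 71.3 to 102 in control and 44.1 to 66.8 in edited samples, and the groups of the other 9 genes overlapped.

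The MST kinases and their scaffold come first in the cascade. Stk3 (chr15:34875496-35178921 in GRCm38, minus strand), which encodes MST2, had 33.5 and 27.8 normalized reads in control and 36.2 and 39.0 in edited morulae (log2 change 0.29 ± 0.42, limma adjusted p = 0.697). The edited values were above both controls, and the change was smaller than its standard error. Stk4 (chr2:164070322-164155524, plus strand), which encodes MST1, had 215 and 239 in control and 220.2 and 189.9 in edited samples, and these overlapped (-0.15 ± 0.23, limma adjusted p = 0.725). Sav1 (chr12:69965012-69987002, minus strand), the adaptor that holds MST to LATS, had 27.9 and 25.3 in control and 13.3 and 26.2 in edited samples (-0.48 ± 0.51, limma adjusted p = 0.58). Edited sample 1 was low and edited sample 2 lay between the controls. The annotated exons of Sav1 overlap those of Atl1 on the opposite strand over 1336 bases, and the strand setting of the counting is not given in the sources used here. Atl1, which encodes a GTPase of the endoplasmic reticulum, was at 2.23 and 2.53 normalized reads in the controls and 13.3 and 9.92 in the edited samples, from 2 to 14 reads a sample, too few to be tested. Its part in the Sav1 values was not tested.

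Neither MST kinase differed between bovine groups beyond the spread of the samples. STK3 ranged from 36.5 to 63.0 in control (median 47.2) and from 29.8 to 85.3 in edited blastocysts (median 44.5), with a log2 change of -0.03 ± 0.24 and a 95% interval of -0.53 to 0.46 (limma adjusted p = 0.982). STK4 ranged from 9.23 to 21.7 (median 14.8) and from 9.90 to 22.1 (median 14.5), with a change of 0.03 ± 0.31 and an interval of -0.61 to 0.67 (limma adjusted p = 0.988). The edited STK3 values spanned all control values, and the direction of both estimates turned when single libraries were left out (STK3 -0.21 to 0.09, STK4 -0.09 to 0.14). SAV1 ranged from 3.94 to 19.0 in control (median 7.74) and from 3.24 to 13.0 in edited samples (median 7.97). It rested on 2 to 16 reads a sample. Fitted without the minimum, the SAV1 log2 change was -0.23 ± 0.42 (limma adjusted p = 0.967).

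The LATS kinases, which phosphorylate YAP and TAZ directly, gave different values in mouse, where Lats2 fell and Lats1 did not pass the test. Lats2 (chr14:57689662-57758388, minus strand) had 111 and 163 normalized reads in the controls against 46.7 and 48.9 in edited morulae, which is 34.9% of the control mean. Both edited samples lay well below both controls, and the controls differed from each other more than the edited samples did. The log2 change was -1.47 ± 0.31 with a 95% interval of -2.12 to -0.83 (limma adjusted p = 0.00206), on 49 to 129 reads a sample. In the authors' deposited table it was -1.51, with an adjusted p of 0.00227. Without control sample 2, the higher control, the change was -1.19 and no longer passed (limma adjusted p = 0.110), and it passed when any other sample was left out (-1.75 to -1.19 over the 4 fits). Lats1 (chr10:7681214-7716460, plus strand) had 38.0 and 25.3 in control and 42.9 and 44.7 in edited samples, a log2 change of 0.48 ± 0.41 that did not pass (limma adjusted p = 0.475). It rested on 20 to 63 reads a sample.

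The lower Lats2 stood beside the lower trophectoderm marker sum given above, and the part of that shift in the Lats2 value was not tested. In such bulk samples, fewer cells of a type and less RNA per cell cannot be told apart. The exons of Lats2 overlap those of the annotated gene Gm49361 on the same strand over 1301 bases, and Gm49361 was not analysed here.

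In bovine blastocysts the LATS genes were both low in reads. LATS1 ranged from 22.3 to 47.3 normalized reads in control (median 36.7) and from 7.46 to 32.5 in edited samples (median 21.7). The 2 lowest of all 12 values, 7.46 and 10.3, were edited samples 5 and 6, and of the 4 other edited values 3 lay within the control range. The log2 change was -0.85 ± 0.33 with an interval of -1.55 to -0.15, at an unadjusted limma p of 0.0193 and an adjusted p of 0.792. It stayed between -1.01 and -0.62 when single libraries were left out. LATS2 had 9.13 to 16.9 in control (median 12.3) and 5.19 to 14.0 in edited samples (median 11.5), from 6 to 24 reads a sample. Its change of -0.30 ± 0.33 had an interval of -0.996 to 0.39 (limma adjusted p = 0.866), and 4 of 6 edited values lay within the control range.

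The MOB1 proteins bind LATS and are needed for its full activity. Mob1a (chr6:83326016-83343776, plus strand) had 118 and 110.0 normalized reads in control and 174 and 213 in edited morulae, 169% of the control mean. Both edited values lay above both controls, by more than the gap between the edited samples. The log2 change was 0.75 ± 0.26 and passed narrowly (limma adjusted p = 0.0478). The call was lost with DESeq2 (adjusted p = 0.0800), without the minimum level (limma adjusted p = 0.0740) and with robust variances (limma adjusted p = 0.0516). Mob1a passed with edgeR (adjusted p = 0.0455), with a minimum of 50 normalized reads (limma, 0.0400) and with every sample scaled to the same total (limma, 0.0199). Its change ran from 0.60 to 0.89 when single samples were left out, and among these fits the call was kept only without edited sample 1. In the authors' deposited table the adjusted p of Mob1a was 0.0894. Mob1b (chr5:88720855-88764220, plus strand) had 32.4 and 34.2 in control and 50.5 and 59.5 in edited samples, a change of 0.70 ± 0.38 that did not pass (limma adjusted p = 0.23). Its edited values were also above both controls, from 27 to 84 reads a sample.

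In bovine blastocysts the MOB1 genes overlapped between groups. MOB1A ranged from 38.7 to 110 in control (median 80.8) and from 47.1 to 113 in edited samples (median 65.9), a log2 change of -0.06 ± 0.26 with an interval of -0.60 to 0.47 (limma adjusted p = 0.969). MOB1B ranged from 23.7 to 38.5 (median 28.7) and from 17.2 to 34.1 (median 23.4), a change of -0.29 ± 0.24 with an interval of -0.80 to 0.21 (limma adjusted p = 0.81). Of the 6 edited MOB1B values 3 lay below the lowest control and the other 3 within the control range.

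Upstream of the kinases, Nf2 and the WWC genes did not pass the test in mouse, with edited values above the controls for Nf2 and below them for Wwc1 and Wwc2. Nf2 (chr11:4765845-4849536, minus strand), which encodes the membrane scaffold Merlin that recruits LATS, had 193 and 214 normalized reads in control and 345 and 287 in edited morulae. Its log2 change was 0.63 ± 0.22 and missed the threshold (limma adjusted p = 0.0559). Nf2 also missed with DESeq2 (adjusted p = 0.0803) and without the minimum level (limma, 0.0873). It passed with edgeR (0.0491), with a minimum of 50 normalized reads (limma, 0.0441) and with every sample scaled to the same total (limma, 0.0219). The change ran from 0.50 to 0.76 when single samples were left out. Wwc1 (chr11:35838400-35980527, minus strand), which encodes KIBRA, had 55.9 and 67.0 in control and 24.8 and 31.2 in edited samples, 45.5% of the control mean. Both edited values were below both controls, on 26 to 53 reads a sample. The change of -1.11 ± 0.39 missed the threshold (limma adjusted p = 0.0542). Wwc1 also missed with DESeq2 (adjusted p = 0.145), with edgeR (0.0695) and without the minimum level (limma, 0.0744). It missed too with every sample scaled to the same total (limma, 0.0882), and the adjusted p in the authors' deposited table was 0.144. The change ran from -1.27 to -0.95 when single samples were left out, and among these fits Wwc1 passed only without edited sample 2. Wwc2 (chr8:47823959-47990924, minus strand), the KIBRA relative, had 436 and 499.6 in control and 334 and 367 in edited samples (-0.41 ± 0.20, limma adjusted p = 0.174). Its exons overlap those of Cldn22 on the opposite strand over 995 bases, and Cldn22 was not analysed here.

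In bovine blastocysts one of these scaffolds, WWC2, had groups that did not overlap. WWC2 had 94.6, 102, 93.3, 91.3, 71.3 and 84.0 normalized reads in control samples 1 to 6, against 66.8, 57.4, 53.8, 44.1, 59.7 and 60.5 in edited samples 1 to 6. The highest edited value lay below the lowest control, and the edited mean was 63.8% of the control mean. The log2 change was -0.64 ± 0.17 with an interval of -1.0 to -0.28, at an unadjusted limma p of 0.00153 and an adjusted p of 0.792. WWC2 therefore did not pass over all tested genes, and its change stayed between -0.70 and -0.57 when single libraries were left out. In the authors' deposited table the change was -0.63 with an adjusted p of 0.587. WWC1 ranged from 73.0 to 166 in control (median 90.1) and from 36.8 to 124 in edited samples (median 78.8), with 2 high controls at 156 and 166 (-0.52 ± 0.28, limma adjusted p = 0.792). NF2 ranged from 53.9 to 109 (median 62.5) and from 58.0 to 88.2 (median 65.1), with a change of -0.06 ± 0.22 and an interval of -0.52 to 0.40 (limma adjusted p = 0.966). All 6 edited NF2 values lay within the control range.

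**Figure D3:**
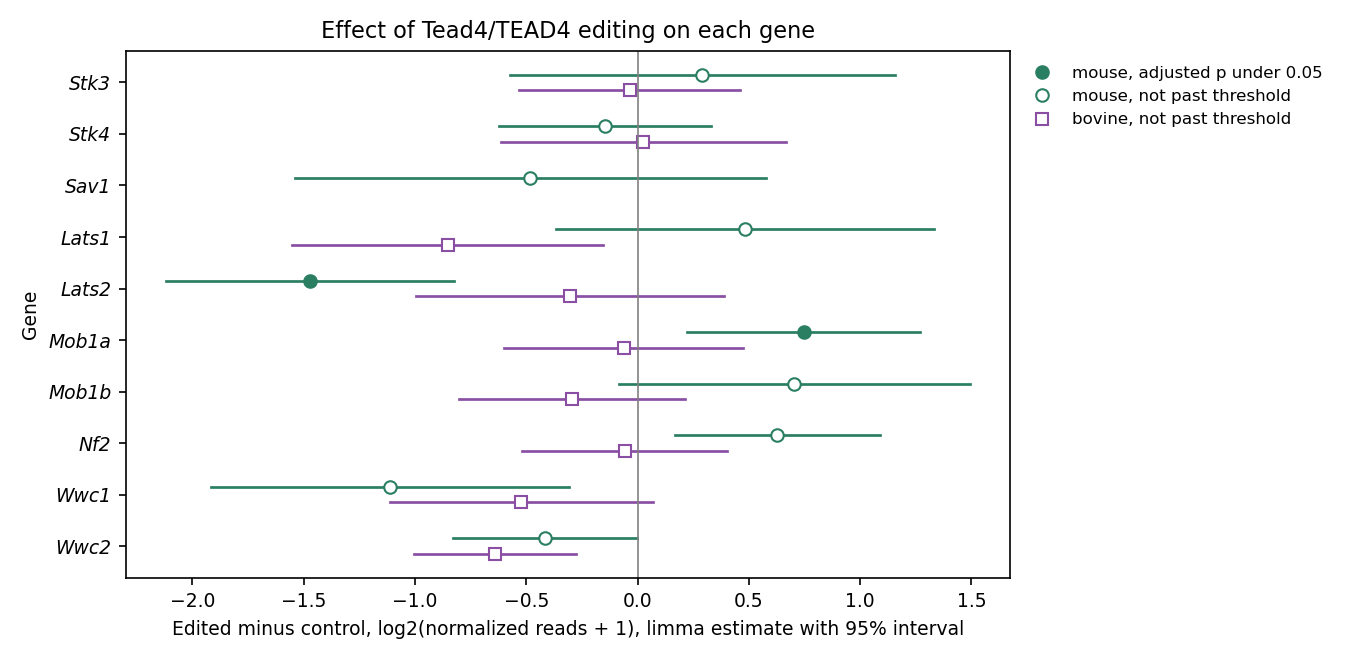
Log2 change (edited minus control, on log2 of normalized reads + 1) of each gene by limma, with 95% intervals, for mouse (circles, filled where the adjusted p was under 0.05) and bovine (squares). Lats2 at -1.47 and Mob1a at 0.75 in mouse are the filled points, and bovine SAV1 has no point because it was below the minimum for testing.

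The mouse and bovine tables were normalized separately, so only the changes within each species were tested against each other. Species, stage, day and remaining TEAD4 transcript cannot be told apart in these changes. None of the 9 genes tested in both species had a difference between species that passed, beside 6.07% of 7073 shared symbols. At an unadjusted p of 0.05, 5 of the 9 did, beside 21.7% of the shared symbols. For LATS2 the bovine change minus the mouse change was 1.17 ± 0.46 with an interval of 0.25 to 2.09 (limma estimates, adjusted p = 0.118). For LATS1 the difference had the opposite sign, -1.34 ± 0.53 with an interval of -2.41 to -0.27 (adjusted p = 0.125). The differences of MOB1A (-0.81 ± 0.36), MOB1B (-1.0 ± 0.45) and NF2 (-0.69 ± 0.31) were also below 0, with limma-based adjusted p of 0.179, 0.187 and 0.187. WWC2 passed the test in neither species, with a change of -0.41 in mouse and -0.64 in bovine, and its difference was -0.23 ± 0.27 with an interval of -0.76 to 0.31 (adjusted p = 0.666). The interval of WWC1 ran from -0.38 to 1.56, of STK3 from -1.30 to 0.65 and of STK4 from -0.60 to 0.95, so for these genes a difference in either direction remained within the error.

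Within a sample, the ratio of the members of a pair does not depend on the sample's scaling, apart from the added read. These ratios were taken on log2 of normalized reads + 1 with no correction for length, so their size and sign are not compared between species. The log2 ratio of Lats2 to Lats1 was 1.52 and 2.64 in control morulae and 0.12 and 0.13 in edited ones, a difference of -1.96. Read numbers of Lats2 and Lats1 were thus unequal in both controls and nearly equal in both edited samples. The controls differed from each other, and the difference ran from -2.52 to -1.39 when single samples were left out. With 2 samples a group the permutation test could not pass the threshold. In bovine blastocysts the same ratio was below 0 in all 6 controls (-1.91 to -0.53, median -1.30) and ran from -2.09 to 0.80 in edited samples (median -0.96). The bovine difference of 0.55 was within the spread (exact permutation test, two-sided, p = 0.318, adjusted over 4 pairs 0.812).

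The ratio of Stk3 to Stk4 was -2.64 and -3.06 in control and -2.57 and -2.26 in edited morulae, so Stk4 gave more reads in every mouse sample. In bovine blastocysts STK3 gave more reads than STK4 in every sample, with log2 ratios of 1.19 to 2.49 in control and 0.84 to 1.99 in edited samples (exact permutation p = 0.812). The ratio of Mob1a to Mob1b was 1.84 and 1.66 in control and 1.76 and 1.82 in edited morulae, which overlapped although both genes were higher in the edited samples. The bovine MOB1A to MOB1B ratio ran from 0.59 to 2.18 in control and from 1.02 to 1.98 in edited samples (exact permutation p = 0.426). The ratio of Wwc2 to Wwc1 was 2.94 and 2.88 in control and 3.70 and 3.52 in edited morulae, a difference of 0.70 with no overlap. In bovine blastocysts that ratio ran from -0.72 to 0.05 in control and from -0.93 to 0.54 in edited samples (exact permutation p = 0.693). All 4 bovine pairs had an adjusted p of 0.812, and in mouse 2 against 2 samples cannot give an exact permutation p below 0.333, so no pair could pass there.

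**Figure D4:**
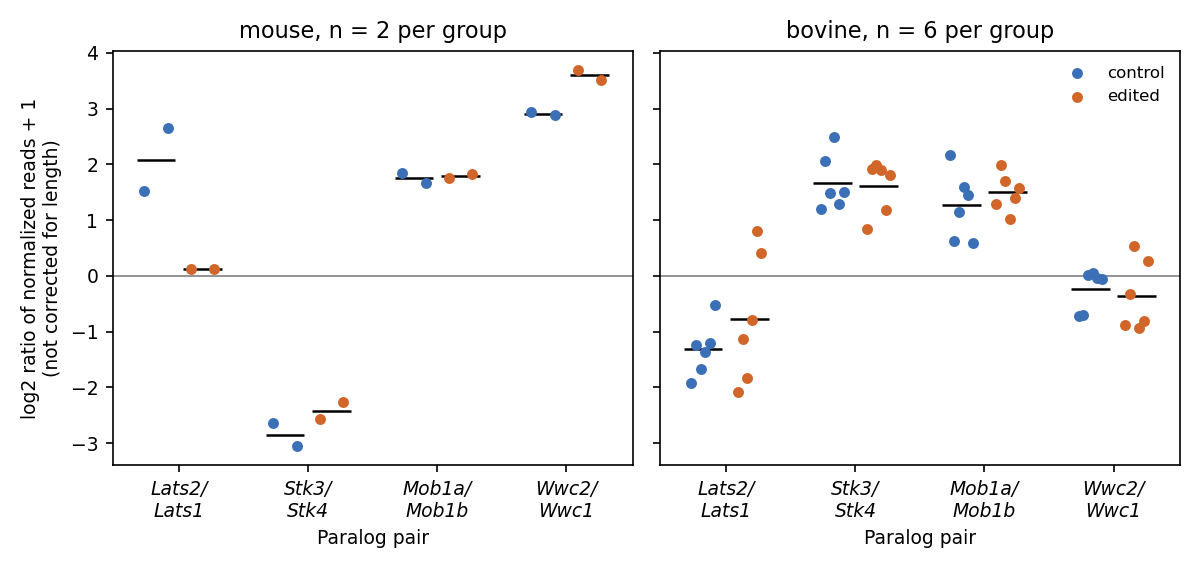
Log2 ratio of normalized reads + 1 of the members of each pair in every sample, for mouse (left, 2 samples a group) and bovine (right, 6 samples a group), with group means as bars. The mouse Lats2 to Lats1 ratio was 1.52 and 2.64 in control and 0.12 and 0.13 in edited samples, and all 4 bovine pairs overlapped between groups.

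Levels of different genes can be compared only per length, and for mouse they were divided by the exon length of the protein-coding transcripts in kilobases. In control morulae Wwc2 was the most abundant at a mean of 53.9 normalized reads per kilobase, followed by Stk4 at 39.9, Nf2 at 36.5, Mob1a at 25.3, Lats2 at 20.52, Wwc1 at 13.6, Sav1 at 10.5, Stk3 at 10.2, Lats1 at 4.34 and Mob1b at 3.71. The control values overlapped between the neighbours Stk4 and Nf2, Mob1a and Lats2, Sav1 and Stk3, and Lats1 and Mob1b, whose order is therefore not settled. In edited morulae Nf2 came first at 56.8 per kilobase, before Mob1a at 42.7, Wwc2 at 40.4, Stk4 at 36.1, Stk3 at 12.5, Sav1 at 7.84, Lats2 at 7.17, Wwc1 at 6.18, Mob1b at 6.14 and Lats1 at 6.0. Among the edited samples the values of Mob1a, Wwc2 and Stk4 overlapped, as did those of Wwc1, Mob1b and Lats1, and the Sav1 values spanned those of Lats2, Wwc1, Mob1b and Lats1, so the order within these sets is not settled. In both groups Stk4 was thus above Stk3 and Mob1a above Mob1b per kilobase. With the exons of all annotated transcripts as the length, Stk4 (38.7 per kilobase) came before Wwc2 (33.9) in control morulae. With that length Sav1 was at 5.06, Stk3 at 5.02 and Mob1b at 2.21 per kilobase, so Sav1 and Stk3 came close to Lats1 at 4.34. Bovine levels per length are not given, because the bovine gene table at hand is of another assembly than the authors'.

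The rest of the pathway was counted over lists of genes with known roles, each against the same threshold over all tested genes. In mouse 6.92% of all tested genes rose and 8.38% fell, and a count near those shares is not a result about a list. The lists were chosen with earlier results of these data known, so the counts are a description. Among kinases of the STE20 family that can phosphorylate LATS in parallel to MST, 1 of 9 tested genes rose in edited morulae (6.92% of all tested genes did) and none fell (median log2 change 0.03), close to the background. The one was Map4k5 (1.14 ± 0.32, limma adjusted p = 0.0162). Among NDR kinases and other MOB proteins, relatives of LATS and MOB1, 1 of 7 rose, beside 6.92% of all tested genes, and none fell (median -0.54). It was Stk38, the NDR1 kinase that also binds MOB1, at a mean of 354 normalized reads in control and 691 in edited morulae (0.95 ± 0.20, limma adjusted p = 0.00147). Of the STRIPAK phosphatase complex, which removes phosphate from MST kinases, 1 of 12 tested genes fell, near the 8.38% of all tested genes, and none rose (median -0.27). It was the subunit gene Fgfr1op2 (-0.62 ± 0.21, limma adjusted p = 0.0495).

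Of 12 tested partners and inhibitors of LATS and MST, 4 fell, beside 8.38% of all tested genes, and none rose (median -0.40). Amotl2, an angiomotin that binds YAP and LATS2, went from a mean of 270 normalized reads in control to 9.86 in edited morulae (-4.70 ± 0.39, limma adjusted p = 3.01e-09). Its edited mean was below 10 normalized reads, so Amotl2 reached the minimum level only through its control samples, in both lists that hold it. Rassf4, a RASSF family gene, went from 153 to 41.0 (-1.88 ± 0.31, limma adjusted p = 0.000144). Ajuba, a LIM protein that binds and inhibits LATS, went from 112 to 35.0 (-1.69 ± 0.35, limma adjusted p = 0.00151), and the fourth was Amot. Of 7 tested effectors and cofactors 3 fell, Vgll3, Vgll4 and the edited gene Tead4, and 1 rose, Wwtr1, which encodes TAZ (median -0.46), beside 8.38% and 6.92% of all tested genes. Tead4 was the target of the editing, so its fall is not a result about this list. Vgll3 reached the minimum level only through its control samples, at means of 25.5 in control and 1.66 in edited morulae. Of 12 listed YAP-TEAD target genes known from cultured cells 6 were below the minimum level, and of the 6 tested 5 fell, beside 8.38% of all tested genes, and none rose (median -1.55): Amotl2, Ajuba, Cyr61, Lats2 and Ctgf. The sixth was Nf2, so these targets hold both Lats2, which fell, and Nf2, whose edited values were above the controls. Amotl2 and Ajuba are counted in 2 lists.

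In bovine blastocysts none of these lists held a gene that passed with limma, beside 0.0113% of all tested genes. Counts of 0 are near that share and are not a result about the lists. Tested were 10 STE20 kinases, 6 NDR and MOB genes, 13 STRIPAK genes, 8 partners and inhibitors, 5 effectors and cofactors and 6 YAP-TEAD targets. The median log2 changes of these lists were -0.16, 0.24, 0.02, -0.44, -0.20 and -0.48 in that order, beside 0.01 for all tested genes. The effectors hold the edited gene TEAD4, which passed with DESeq2 and in the authors' deposited table (adjusted p of 0.0142).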

How the data were processed

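Libraries were made by a Smart-seq2 procedure from polyadenylated RNA with an oligo(dT) primer, as the labels' protocols state. Tools named in the submitters' processing notes, with no version, are Trimmomatic, HISAT2, featureCounts and DESeq2, and the builds are mm10 and ARS-UCD1.2. Annotation, strand setting and handling of multiple matches are not given in the sources used here. The deposited signal values, 1 table per species, are reads per gene after division by each sample's DESeq2 size factor (normalized reads), as the file headers and the values show. The authors' log2 fold changes with standard errors, their p-values and adjusted p-values, and their test statistic, treated as a score and not used, stand in the same deposited tables, and they are quoted only as the authors' deposited table. All values came out as whole reads at a tolerance of 0.05 reads, in every library by the spacing of its low values.

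Genes whose mean over all samples reached 10 normalized reads were fitted with limma 3.58.1 in R 4.3.3 on log2(normalized reads + 1), edited minus control, two-sided and with a variance trend, and p-values were Benjamini-Hochberg adjusted over all tested genes of a table, with a threshold of 0.05. A change on this scale understates that of low genes. Errors beside log2 changes are limma standard errors, which borrow variance from all tested genes, as do the limma p-values and intervals. Species differences used the limma estimates with Satterthwaite degrees of freedom. Paralog ratios were compared by exact permutation of samples. Alternatives were other pseudocounts and minimums, robust variances, same-total scaling, edgeR 4.0.16 and DESeq2 1.42.0 on the recovered reads, a replicate block and leaving out each sample.

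The 10 genes and the lists were chosen with earlier results of these data known. All 10 are named whether or not they passed, with the edited gene and, in each list, the genes that passed with the largest change (at most 3). Other list members are named only to complete a count. Mouse loci, lengths and sequences come from GENCODE M21 (GRCm38). Limits from read numbers cover counting error only, since PCR copies were not marked.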

Additional observations from a re-analysis of the deposited data

How the results depend on the processing

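Of the 10 mouse genes 2 passed, and 1 passed with no minimum level, 1 with robust variances, 1 with DESeq2, 3 with edgeR, with a minimum of 50 normalized reads and with same-total scaling, and 0 to 3 when single samples were left out. The number of all mouse genes that passed was 1742 and ran from 580 to 2588 over those fits, and the number of species differences from 120 to 893. In the mouse fits the group with 1 sample left was assumed to vary like the other. The counts were lowest without control sample 1 (580 and 120) and highest without edited sample 2 (2588 and 893). DESeq2 passed 5 bovine genes against 1 by limma: LOC101905257, HIST1H1C, TEAD4, GNB4 and LAMA1, named after their values were seen. Same-total scaling turned the direction of bovine MOB1A (to 0.0574), NF2 (0.0626) and STK3 (0.0851). Leaving out single samples also turned MOB1A (-0.24 to 0.0542), NF2 (-0.14 to 0.0615), STK3 (-0.21 to 0.0894), STK4 (-0.0880 to 0.14), the mouse Mob1a to Mob1b ratio difference (-0.0487 to 0.13) and the bovine STK3 to STK4 one (-0.16 to 0.10). The cause was not tested. With a minimum of 50 normalized reads 5 of the mouse and 5 of the tested bovine genes were no longer fitted. The species differences without single samples and the lengths over all annotated transcripts were added after seeing the data.

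The labels do not say that replicate numbers pair the samples. Deviations of same-numbered samples correlated at 0.106 in mouse, a single value since 2 samples a group mirror each other, and at -0.19 to 0.34 over the 6 bovine ones, where 1 of 6 correlated best with its own number. With the replicate block 1816 mouse genes passed, 3 of the 10 among them, as Wwc1 then passed too (limma adjusted p = 0.0447), and 0 bovine kinase or scaffold genes passed.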

Other observations

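The 9 tested bovine genes did not vary together from sample to sample. Over the 12 blastocyst samples, with each group mean removed, the 36 pairwise Pearson correlations of log2 values ran from -0.67 to 0.70 with a median of -0.03, and 17 were above 0. The highest was between LATS1 and MOB1A (0.70), followed by LATS1 and MOB1B (0.59). The other LATS kinase gene went the other way, with LATS2 at -0.38 to MOB1A and at -0.29 to MOB1B. The lowest were between WWC2 and STK3 (-0.67) and between MOB1B and NF2 (-0.59). WWC2 and WWC1 correlated at 0.46. The points share library, depth and scaling, the genes rest on as few as 6 reads a sample, and the values are a description.

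The 3 tested bovine genes whose residual pattern was most like that of LATS2 over the same 12 samples were SLC2A5, a fructose transporter gene (r = 0.88, mean 337 normalized reads), TRAF3, a signalling adaptor gene (0.87, mean 13.0), and TMEM104 (0.86, mean 17.0). Nothing is drawn from these, as they are the highest of 8884 genes.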
